A study of Mikania micrantha with 15 samples.

Results

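The genes described here were read at similar levels in the flower and the shoot apex of Mikania micrantha and at lower levels in its leaf, root and stem. Mikania micrantha is a climbing vine, of the daisy family, that grows fast. A gene ID was taken as a member when the lower of its flower and shoot apex means was at least 10 CPM and at least 3 times the highest of its leaf, root and stem means, with the flower and shoot apex means less than 3-fold apart. CPM, the standard unit of read counts scaled to library size, is here the count of a gene per 1000000 counts in its library. Of 41487 IDs, 209 met this rule, 0.504%. The members were thus chosen by their mean CPM in the 5 organs, and their distance from leaf, root and stem is given as a description without a test.

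The series holds RNA sequencing of the flower, shoot apex, leaf, stem and root, with 3 libraries per organ and 15 in all. Every group came from wild-type vines raised from cuttings. They grew for 60 days in Hoagland solution, which supplies mineral nutrients, at 24 °C, with light for 16 h and darkness for 8 h of each day. The labels give neither the age of a flower or leaf nor whether replicates were separate plants. The p-values therefore set a difference only against the spread among these libraries, and part of that spread may be technical. The IDs are locus tags that the table does not pair with gene names or products. Roles of single members are therefore not given, markers of the organs could not be checked, and few IDs are named.

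The shoot apex is the growing tip of the shoot. In flowering plants it holds the apical meristem, a pool of dividing cells that gives rise to leaf and stem primordia, and a flower arises from a meristem derived from it that makes sepals, petals, stamens and carpels instead. Both samples can thus hold young, dividing and differentiating cells. Mature leaf and stem hold mostly expanded cells, and the root has a meristem of its own at its tip. This is general background and was not measured here.

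Library totals ranged from 3777165 counts in root replicate 2 to 12817396 in shoot apex replicate 2. All 209 members passed the filter on low counts that left 27055 genes for testing, and all were high enough in flower and shoot apex to do so. The median member held 952 reads over the 3 flower libraries and 1056 over those of shoot apex. In the other organs it held 124 reads in leaf, 69 in stem and 44 in root, so differences among these rest on fewer reads. In bulk tissue, fewer cells of a type and less RNA per cell cannot be told apart.

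The summed share of the members was 0.959 ± 0.0232% of a flower library (SD, n = 3) and 1.01 ± 0.0131% of a shoot apex library. It was 0.141 ± 0.0507% in leaf, 0.126 ± 0.0191% in stem and 0.0816 ± 0.0277% in root. The median member was at 29.8 CPM in flower and 29.6 in shoot apex. It was at 3.90 CPM in leaf, 3.14 in stem and 1.97 in root. Every flower and shoot apex library lay above every leaf, root and stem library for each of the 209 members. The same held for 10.4% of all tested genes, and nothing is read from this count because the rule used these levels.

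**Figure D1:**
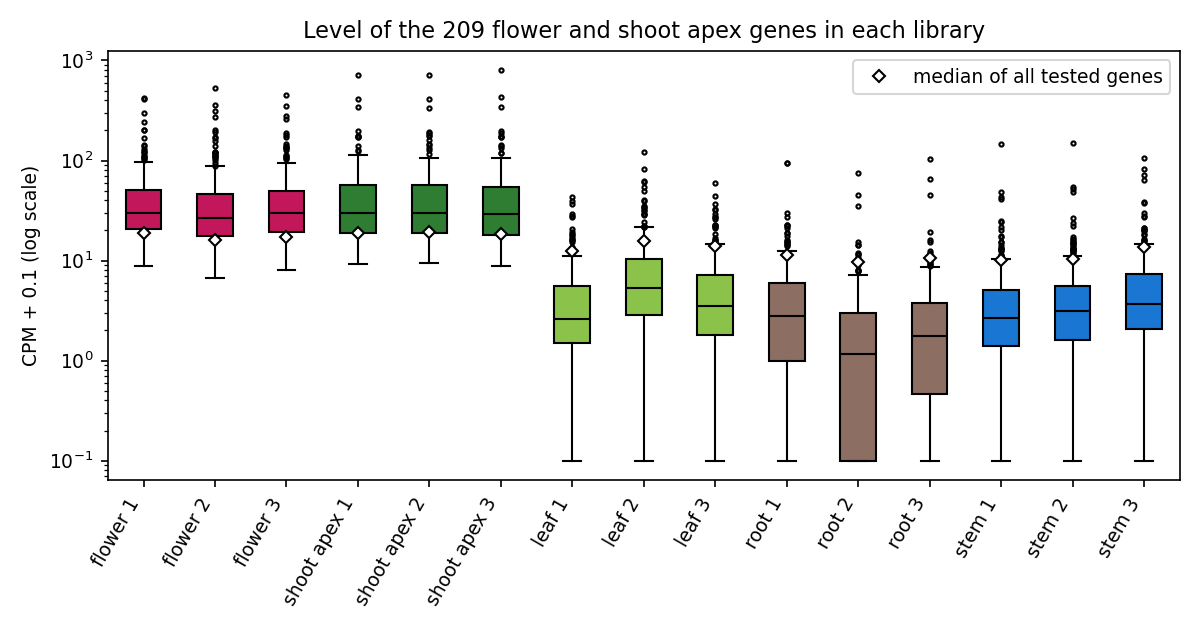
Level of the 209 members in each of the 15 libraries, as CPM plus 0.1 on a log scale. Boxes hold the middle of the members with a line at the median, whiskers reach 1.5 box lengths, circles are members beyond them and diamonds are the median of all tested genes. Member medians sit between 26.8 and 29.96 CPM in flower and shoot apex and between 1.06 and 5.25 CPM in the other organs.

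Most members lay well under the level of the most abundant ones. The lower of the flower and shoot apex means was under 20 CPM for 80 members, 20 to 50 CPM for 90, 50 to 100 CPM for 29 and at least 100 CPM for 10. The most abundant was E3N88_34610, at 423, 535 and 450 CPM in flower replicates 1 to 3 and 711, 714 and 798 CPM in shoot apex. It was also at 147, 150 and 106 CPM in stem, 93.9, 74.1 and 103 in root and 39.2, 39.5 and 29.3 in leaf. Its libraries kept apart by organ, with every shoot apex library above every flower library and leaf lowest. It thus kept sizeable levels outside flower and shoot apex, and the lower of its 2 defining means was 3.49 times the stem mean.

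The second most abundant, E3N88_36073, was at 298, 310 and 279 CPM in flower and 407, 414 and 433 CPM in shoot apex. In leaf it was at 36.7, 121 and 59.2 CPM, in stem at 42.8, 54.4 and 82.2, and in root at 12.3, 1.85 and 4.94. The leaf and stem libraries overlapped and leaf replicate 2 was the highest of the 9 libraries of leaf, root and stem. Every root library lay below them.

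The distance from the other organs was short for most members. The ratio of the lower defining mean to the highest other mean had a median of 4.44. It was 3 to 4 for 88 members, 4 to 5 for 34, 5 to 10 for 62 and at least 10 for 25. The list was also sensitive to how libraries were scaled. With CPM scaled by TMM (trimmed mean of M-values, a correction for library composition), 147 IDs met the rule, all of them among the 209. The TMM factors were 1.07 to 1.19 in flower and shoot apex libraries and 0.80 to 1.07 in those of the other organs. Whether the IDs lost were those with short ratios was not tested.

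**Figure D2:**
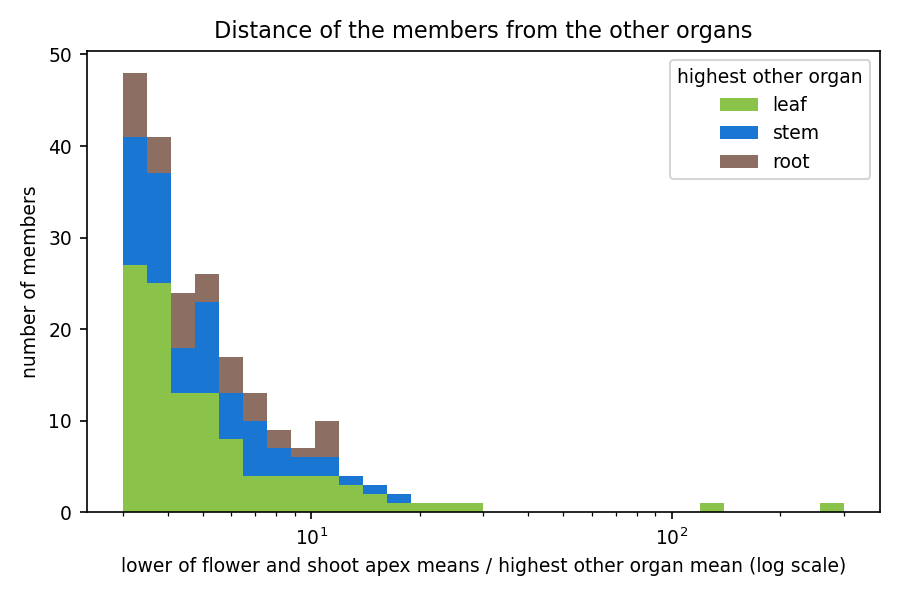
Number of members by the ratio of the lower of their flower and shoot apex means to the highest of their leaf, root and stem means, on a log axis, with colours for the organ that was highest. The counts fall from the limit of 3 onward, and E3N88_41229 and E3N88_33210 lie far beyond the rest.

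The most restricted members stood well clear of the others. E3N88_33210 was at 17.1, 12.9 and 15.9 CPM in flower and 28.7, 25.1 and 22.7 CPM in shoot apex. Outside these organs it had 2 reads in leaf, 1 in stem and 0 in root. Every read outside flower and shoot apex came from leaf replicate 2 or stem replicate 2. The ratio of its flower to its leaf reads, scaled by the summed totals, was 232 with a 95% exact (Clopper-Pearson) interval of 63.8 to 1918, which covers counting error only. Against a floor of 3 counts over the root libraries, or 0.156 CPM, it was at least 98.2-fold higher in flower than in root.

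E3N88_41229 was more abundant, at 105, 121 and 87.4 CPM in flower and 66.0, 65.1 and 60.0 CPM in shoot apex. In leaf it was at 1.38, 0.0833 and 0 CPM, in root at 0, 0.529 and 0, and in stem at 0.735, 0 and 0. Each of the other organs thus had a library with no read of it. The ratio of its shoot apex mean to its leaf mean was 130, and leaf replicate 1 held most of the leaf reads.

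By plain CPM, leaf was the organ closest to flower and shoot apex for the largest number of members. The highest other mean was that of leaf for 113 members (54.1%), of stem for 62 (29.7%) and of root for 34 (16.3%). Among the other 14452 tested genes with at least 10 CPM in both flower and shoot apex, the shares were 47.7% for leaf, 27.2% for stem and 25.1% for root. The median ratio was 4.25 where leaf was closest, 4.74 where stem was and 4.75 where root was. Scaling bears on this split. Over all tested genes the median fitted log2 change of leaf over root was 0.27 with plain totals and 0.06 with TMM.

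Some IDs lay close to the limits of the rule. Just inside the 3-fold limit, E3N88_32621 was at 29.8 ± 2.25 CPM in flower, 29.4 ± 3.81 in shoot apex and 9.76 ± 5.99 in leaf (SD, n = 3), and E3N88_13468 was at 30.03 ± 6.38, 18.2 ± 1.67 and 6.01 ± 1.06 CPM in the same organs. Just outside it, E3N88_34034 had a shoot apex mean of 49.5 ± 3.82 CPM, a flower mean of 24.2 ± 5.38 and a leaf mean of 8.07 ± 5.44, a ratio of 2.99. E3N88_11750, also at a ratio of 2.99, was at 55.9 ± 11.5 CPM in flower and 18.7 ± 9.60 in leaf. The leaf SD of these IDs was larger than their distance from the limit. At the 10 CPM minimum, E3N88_34335 entered with a flower mean of 10.1 ± 1.65 CPM, and E3N88_26966 stayed out at 9.99 ± 3.54. At the limit on the fold between flower and shoot apex, E3N88_38982 entered at 2.84-fold and E3N88_25375 stayed out at 3.06-fold.

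Between flower and shoot apex the members split about evenly. The flower mean was higher for 94 and the shoot apex mean for 115, and 123 lay within 1.5-fold. The log2 ratio of flower to shoot apex ran from -1.51 to 1.46 with a median of -0.11. Every flower library lay above every shoot apex library for 56 members, against 31.9% of tested genes, and the reverse held for 64, against 38%. By edgeR's quasi-likelihood test on counts, with limits of 2-fold and of 0.05 on the adjusted p, 13 members were called higher in flower and 11 in shoot apex, where 17.5% and 13.6% of all tested genes were called. Since the rule limits this fold, nothing is read from these counts.

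**Figure D3:**
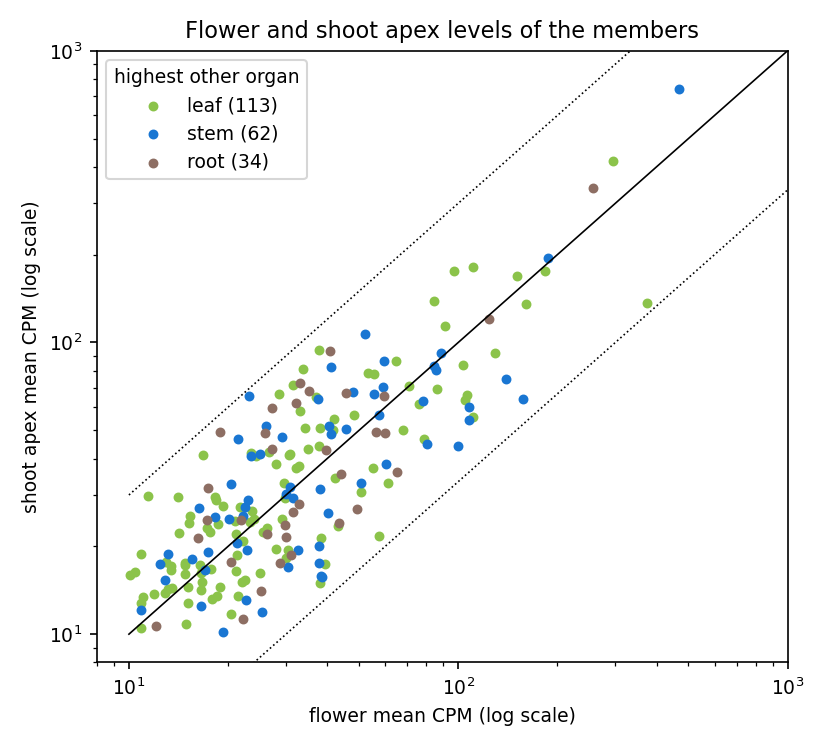
Mean CPM of each member in flower and in shoot apex on log axes, coloured by the organ with the highest of the leaf, root and stem means. The solid line marks equal levels and the dotted lines the 3-fold limit; 123 of the 209 members lie within 1.5-fold of equality.

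The split of these few calls moved with single libraries and with scaling. Calls higher in flower numbered 8 without flower replicate 2, 5 without flower replicate 3, 7 without shoot apex replicate 1 and 8 without shoot apex replicate 3. Calls higher in shoot apex numbered 5 and 3 without flower replicates 2 and 3, and 7 without shoot apex replicate 2 or 3. The share higher in flower was 54.2% under TMM. It was 68.2% under RLE factors, 65.2% by DESeq2 and 40.9% when libraries were scaled by their totals alone.

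The member with the largest excess in flower was E3N88_01001, at 410, 361 and 349 CPM in flower and 125, 143 and 141 CPM in shoot apex. It was at 43.4, 30.9 and 21.8 CPM in leaf, 4.41, 3.61 and 7.20 in stem and 0.399, 0.794 and 0.914 in root. The organs did not overlap, and their means fell in the order flower, shoot apex, leaf, stem and root. The largest excess in shoot apex was that of E3N88_38982, at 26.0, 21.6 and 21.6 CPM in flower and 61.4, 68.3 and 66.9 in shoot apex. Its libraries did not overlap between these organs. The size of both differences is bounded by the rule, so nothing is read from a test of them.

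Leaf, root and stem were compared next, since the rule reads only the highest of their means and not their order. At least 1 of the 3 contrasts was called for 117 members (56.0%), about the share of all tested genes (56.5%), and none for 92. More members were called higher in leaf or in stem than in root than the reverse. Against root, 75 members (35.9%) were called higher in leaf and 23 (11.0%) in root, by edgeR's quasi-likelihood test with a limit of 2-fold and of 0.05 on the adjusted p. Among all 27055 tested genes the shares were 23.3% and 20%. This background includes genes low in flower and shoot apex, which the rule leaves out. Among the other 14452 tested genes with at least 10 CPM in both, leaf had the highest of the leaf, root and stem means for 47.7% and root for 25.1%. How far a lean away from root belongs to genes of this level in general was not tested. The median fitted log2 fold change of leaf over root was 0.67 for the members and 0.06 for all tested genes.

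For root and stem, 65 members (31.1%) were called higher in stem and 13 (6.22%) in root, where all tested genes gave 15.4% and 13.1%. The median log2 fold change of root over stem was -0.47 for the members and 0 for all genes. For leaf and stem the members were close to the background, with 35 (16.7%) higher in leaf and 28 (13.4%) in stem against 19.9% and 15.6%. The median log2 fold change of leaf over stem was 0.16 for members and 0.11 for all genes. When only the 6 libraries of each pair were fitted, 51 members were higher in leaf and 15 in root, 39 in stem and 8 in root, and 27 in leaf and 16 in stem. The direction of the larger count was the same in each pair. For leaf and stem it turned when leaf replicate 2 alone was left out, with 29 members higher in leaf and 37 in stem.

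**Figure D4:**
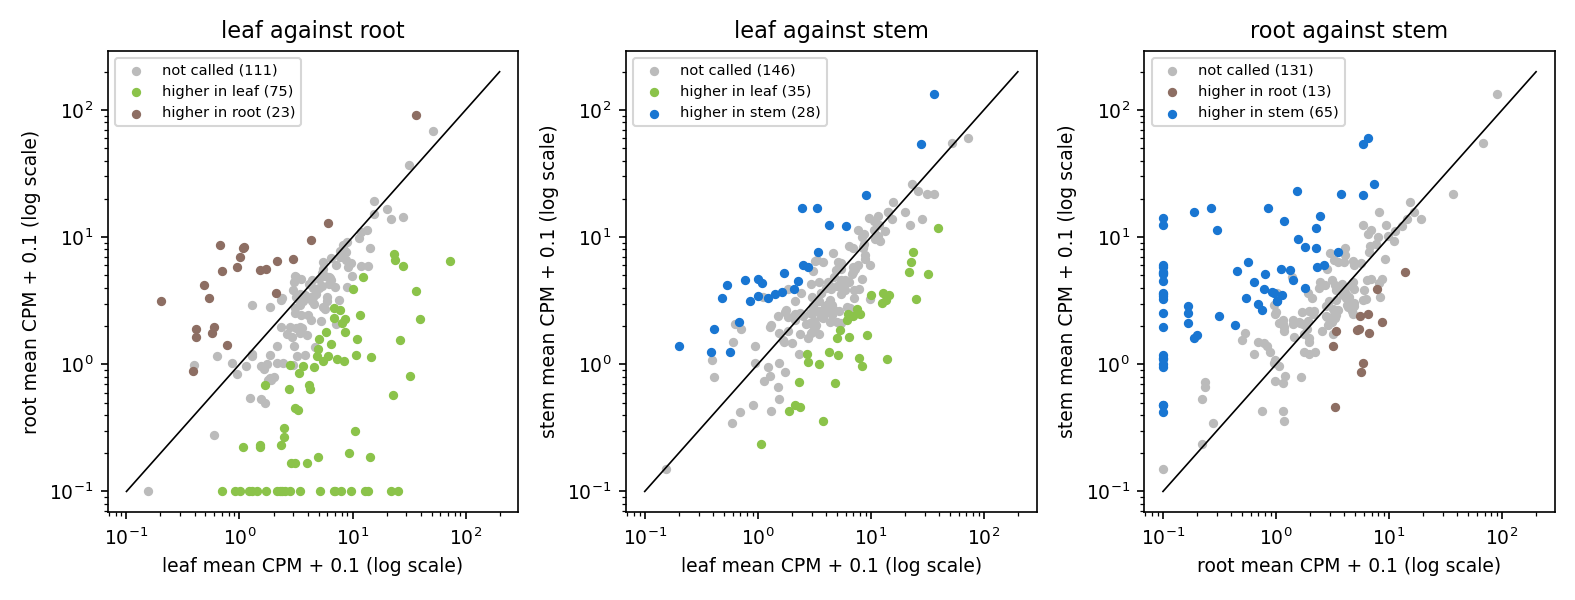
Mean CPM plus 0.1 of each member in leaf against root, leaf against stem and root against stem, on log axes, with a line at equal levels. Colours mark members called by edgeR with limits of 2-fold and of 0.05 on the adjusted p; the row or column of points at 0.1 holds the 23 members with no read in root.

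The 3 contrasts together sorted the called members into many types. The larger ones are given here and those with fewer members are left out. Of the members, 34 (16.3%) were called higher in both leaf and stem than in root with no call between leaf and stem, a type that held 4.94% of all tested genes. A further 13 (6.22%) were called highest in leaf and lowest in root with stem between, against 4.17% of tested genes. Another 13 (6.22%) were called higher in leaf than in root and in stem with no call between the latter, against 9.05%. Highest in stem and lowest in root were 9 (4.31%), against 1.07%. Lower in leaf than in both root and stem, with no call between these, were 11 (5.26%), against 6.23%. Higher in root than in leaf and in stem, which did not differ by a call, were 6 (2.87%), against 6.27%. A call of leaf over root alone was found for 6 (2.87%), against 3.71%. One of leaf over stem alone was found for 6 (2.87%), against 2.96%. These shares carry no test of their own. No call in a contrast does not show that the levels were equal.

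A set of 23 members (11.0%) had no read in any root library, against 5.09% of all tested genes, while every member had reads in leaf and in stem. The rule caps the root mean of members and not that of other tested genes, so nothing is read from this difference. Leaf was the highest other organ for 14 of the 23 and stem for 9. Root also had the lowest total summed over its libraries, where 3 counts correspond to 0.156 CPM. Lower levels could still be read, as for E3N88_02994 with 1 root read and a root mean of 0.088 CPM. No read in root therefore does not show that a member was absent there.

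Among called members with at least 5 CPM in leaf, the one with the largest fitted excess of leaf over root was in this set. E3N88_36599 was at 202, 169 and 178 CPM in flower and 176, 179 and 174 CPM in shoot apex. In leaf it was at 9.93, 49.7 and 15.7 CPM and in stem at 1.84, 3.46 and 4.11, with no read in root. Flower and shoot apex libraries overlapped, and every leaf library lay above every stem library. By its mean it was at least 161-fold higher in leaf than in root, a bound that leaves out the spread among leaf libraries. The edgeR test against no difference between leaf and root gave an adjusted p of 1.93e-06. Leaf replicate 2 was the highest of the leaf libraries. Without that library the bound was 82.3-fold.

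In the other direction, E3N88_35153 had the largest fitted excess among called members with at least 5 CPM in root. It was at 14.2, 1.59 and 10.1 CPM in root and 0.252, 1.08 and 0.397 in leaf. Its flower libraries were at 29.4, 24.4 and 27.6 CPM, those of shoot apex at 40.9, 46.4 and 42.1 and those of stem at 3.12, 1.5 and 1.54. Root and leaf did not overlap, but root replicate 2 lay close to leaf replicate 2 and among the stem libraries. The fitted log2 fold change of leaf over root was -4.05 ± 0.60 (SE, edgeR adjusted p = 3.69e-05). When leaf replicate 2 was left out it was -4.79 (edgeR adjusted p = 9.05e-05). Its alternatives gave adjusted p-values of 6.82e-11 to 0.00284.

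Between leaf and stem, E3N88_37100 had the largest fitted excess in leaf among called members with at least 5 CPM there. It was at 11.8, 17.7 and 11.6 CPM in leaf against 0.735, 1.65 and 0.617 in stem. It was at 74.3, 78.9 and 74.4 CPM in flower and 66.7, 57.6 and 60.3 in shoot apex. Root held 0 reads of it. Leaf and stem did not overlap and their log2 fold change was 3.66 ± 0.33 (SE, edgeR adjusted p = 2.11e-06). It was 4.27 without stem replicate 2, where the edgeR adjusted p was 2.59e-06, and 3.06 without leaf replicate 2, root replicate 1 and stem replicate 3 together, where it was 2.05e-06, and its alternatives gave adjusted p-values of 3.61e-22 to 0.000775.

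Of the called members with at least 5 CPM in stem, E3N88_04423 had the largest fitted excess of stem over leaf. Some members below that level had a larger one. It was at 13.2, 16.1 and 20.9 CPM in stem against 5.41, 1.08 and 0.596 in leaf. It was at 142, 191 and 139 CPM in flower, 63.9, 62.7 and 64.7 in shoot apex, and 0.499, 0 and 0 in root. Stem and leaf did not overlap, and leaf replicate 1 stood above the other leaf libraries. The fitted log2 fold change of leaf over stem was -3.00 ± 0.55 (SE), with an edgeR adjusted p of 0.000406. It was -4.45 when leaf replicate 1 was left out (edgeR adjusted p = 1.3e-06). Its alternatives gave adjusted p-values of 1.3e-06 to 0.0127.

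Between root and stem, E3N88_16113 had the largest fitted excess in root among called members with at least 5 CPM there. It was at 9.69, 3.71 and 3.29 CPM in root against 0.184, 1.20 and 0.926 in stem. It was at 35.7, 27.0 and 34 CPM in flower, 58.7, 64.1 and 63.2 in shoot apex, and 1.13, 1.67 and 2.09 in leaf. Root and stem did not overlap, and root replicate 1 was well above the other root libraries. The log2 fold change of root over stem was 2.91 ± 0.46 (SE), with an edgeR adjusted p of 0.000132. Without root replicate 1 it was 2.23 (edgeR adjusted p = 0.000714), and its alternatives gave adjusted p-values of 6.06e-09 to 0.0102.

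E3N88_25734 had the largest fitted excess in stem over root among called members with at least 5 CPM in stem. It was at 11.4, 14.6 and 15.9 CPM in stem with no read in root. It was at 50.6, 64.4 and 41.8 CPM in flower, 113, 103 and 105 in shoot apex, and 6.16, 15.3 and 7.05 in leaf. Shoot apex lay above flower in every library, and leaf and stem overlapped. By its mean it was higher in stem than in root by at least 89.7-fold. The edgeR test against no difference between these organs gave an adjusted p of 2.85e-07.

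**Figure D5:**
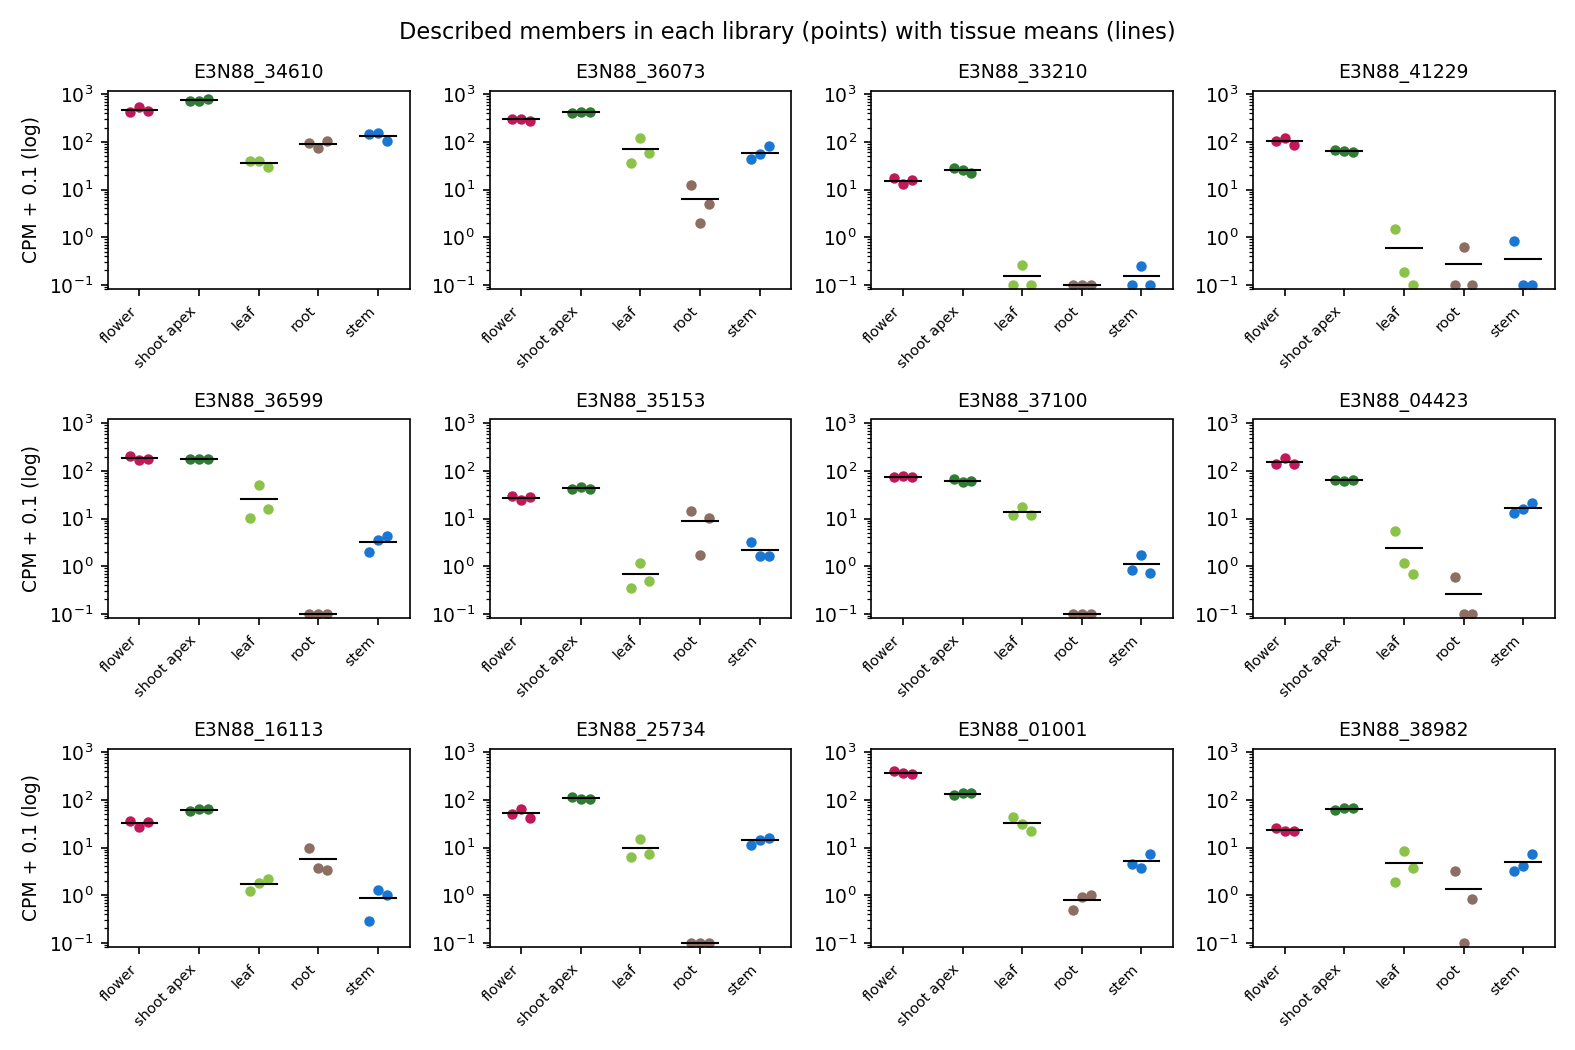
CPM plus 0.1, on a log scale, of the 12 members described by level, ratio or contrast, in each library (points, replicates 1 to 3 from left to right) with the organ mean (line). Flower and shoot apex points lie close together within an organ, while leaf and root points spread more widely, such as 9.93 to 49.7 CPM in leaf for E3N88_36599.

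Replicates spread more in the organs where the members were low. The median coefficient of variation (SD over mean of the 3 libraries) was lowest in shoot apex (8.60%) and flower (15.6%). It reached 37.6% in stem, 48.3% in leaf and 63.7% in root. For the 14661 tested genes with at least 10 CPM in flower and shoot apex, members included, it was 6.45% in shoot apex, 11.1% in flower, 18.2% in stem, 22.4% in leaf and 21.6% in root. Counting error is larger at low counts, and its part in this difference was not tested.

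In leaf the members moved together between libraries. Their median was 2.52, 5.25 and 3.38 CPM in leaf replicates 1 to 3. The median of all tested genes was 12.4, 15.4 and 13.9 CPM in the same libraries, a narrower range. Leaf replicate 2 was the highest leaf library for 157 of the 209 members (75.1%), against 49.5% of tested genes with a read in leaf. With TMM scaling the shares were 68.4% and 40.3%. Leaf replicate 2 also had the highest total of the leaf libraries, at 12001006 counts, and the part of depth or of the tissue sampled in this was not tested.

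Genes dominant in flower or in shoot apex alone had different orders in those leaf libraries. By the same limits of 10 CPM and 3-fold over every other organ, 675 IDs were dominant in shoot apex and 832 in flower. The shoot apex-dominant genes had medians of 2.26, 6.42 and 3.57 CPM in leaf replicates 1 to 3, and 85.2% of those with a leaf read were highest in replicate 2. The flower-dominant genes had medians of 1.32, 0.333 and 0.298 CPM, and 66.0% were highest in replicate 1. The order of replicate 2 over 3 over 1 was found for 58.9% of members, 70.4% of shoot apex-dominant genes and 39.4% of all tested genes. This likeness was not seen in every organ. In flower, replicate 1 was the highest for 52.2% of members and 52.2% of tested genes, but for 86.5% of shoot apex-dominant genes. With TMM scaling these flower shares were 39.7%, 38.8% and 79.2%. In root, replicate 1 was the highest for 62.9% of members, 60.3% of flower-dominant and 49.2% of shoot apex-dominant genes with a root read. These shares are descriptions of the libraries and carry no test.

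Of the 15 libraries, leaf replicate 2 moved the number of IDs that met the rule the furthest when left out. Without it 278 IDs met the rule, of which 206 were among the 209, and without leaf replicate 1 the number was 180. Leaving out any of the other 13 libraries gave 196 to 224.

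In root the member medians were 2.70, 1.06 and 1.65 CPM in replicates 1 to 3, and root replicate 1 was the highest for 117 of the 186 members with a root read (62.9%), against 50.4% of tested genes. In stem they were 2.57, 3.01 and 3.60 CPM, and stem replicate 3 was the highest for 62.7% of members and 62.4% of tested genes. Root replicate 1 and stem replicate 3 were also the deepest libraries of their organs. Without leaf replicate 2, root replicate 1 and stem replicate 3 together, a choice made after the data were seen, 312 IDs met the rule and 202 of them were among the 209. Of the 209, 91 were then called higher in leaf and 23 in root for that pair, 82 in stem and 9 in root, and 36 in leaf and 38 in stem.

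The same rule was applied to the other pairs of organs. Flower and shoot apex shared 209 IDs, root and stem 114, leaf and shoot apex 72, flower and root 67, flower and leaf 66, and the remaining 5 pairs between 9 and 44. Flower and shoot apex were first in this order with plain CPM and also without the 3 libraries, where root and stem shared 143. With TMM scaling root and stem came first with 193 IDs, ahead of the 147 of flower and shoot apex.

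Few members were next to another member in the numbers of their locus tags. Only 2 pairs of members had consecutive numbers, E3N88_14932 with E3N88_14933 and E3N88_36072 with E3N88_36073, which were picked out after their values were seen. Of the 418 numbers next to a member, 4 (0.957%) were members, against 0.504% of all IDs. The first pair was alike in level, at 41.1 ± 4.31 and 37.5 ± 5.60 CPM in flower (SD, n = 3) and 82.6 ± 3.39 and 64.2 ± 2.35 CPM in shoot apex. The second pair was not, since E3N88_36072 was at 25.4 ± 6.13 CPM in flower and 11.9 ± 0.396 in shoot apex, higher in flower, while E3N88_36073 was higher in shoot apex. These are CPM and not levels per length, so the size of the gap between 2 genes is not a ratio of transcripts. Whether neighbouring numbers are neighbours in the genome was not checked here.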

How the data were processed

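The authors deposited raw read counts per gene ID for 15 libraries. The submitters' processing notes name HISAT2 as the aligner. For its version, the counter, the build, the annotation and the treatment of strand and multiple hits, nothing is given in the sources used here. Counts are therefore uncertain for antisense or overlapping genes and for near-identical copies. Columns were matched to samples by tissue and replicate number. The members, lists and tests were chosen with earlier results of these data known.

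Printed CPM use plain library totals. Tests used edgeR 4.0.16 in R 4.3.3, with genes kept by filterByExpr on tissue groups (27055, holding 99.9% of counts), TMM factors, 1 term per tissue over all 15 libraries, quasi-likelihood F tests and Benjamini-Hochberg adjustment over all genes tested in a contrast. TMM folds therefore differ from ratios of printed CPM. SEs were derived from the log2 fold change and its F statistic. A call needed a 2-fold change and an adjusted p under 0.05. With no read in an organ, a fold is a lower bound against 3 counts over its 3 libraries. DESeq2 1.42.0 was an alternative. The procedure was also run on simulated data with equal levels in all organs, except for some genes raised in root. The members differ from that setting, so nothing is read from it here. Summaries used Python 3.11.15 with pandas 2.3.3.

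IDs were named by rule, at most 2 in each direction: the highest levels, the largest ratios, those next to each limit, the called member with the largest fold in each direction of the leaf, root and stem contrasts with at least 5 CPM in the higher organ, and the largest fold in each direction between flower and shoot apex. Gene lists by symbol could not be matched to locus tags and were not used. Replicates were compared by chi-square over genes with at least 10 reads in a pair of libraries. The statistic was at least 2.07 times its degrees of freedom in every pair, so no library was counted as a repeat of another.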

Additional observations from a re-analysis of the deposited data

How the results depend on the processing

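With a fold limit of 2 the rule took 561 IDs, with a limit of 4 it took 121, and with a minimum of 20 CPM 129. Leaving out 1 library gave 180 to 278 members. It gave 69 to 96 members higher in leaf and 19 to 28 in root, 29 to 44 higher in leaf and 20 to 37 in stem (29 and 37 without leaf replicate 2, where the larger count changed sides), and 10 to 17 higher in root and 56 to 82 in stem. Between flower and shoot apex it gave 5 to 13 calls in flower and 3 to 13 in shoot apex. Fits to the 6 libraries of a pair gave 15 members higher in root than leaf, 16 in stem than leaf, 8 in root than stem, 39 in stem than root and 20 in flower than shoot apex, from their own estimate of the spread. With no fold limit the flower and shoot apex calls were 25 and 22, and RLE factors gave 7 calls in shoot apex. Under plain totals the median fitted log2 change over the tested genes went from 0.06 to 0.27 for leaf over root and from 0.11 to 0.23 for leaf over stem, where the member medians became 0.87 and 0.29. Of 206 alternative counts, 187 were within 1.5 times the reported count. For the 8 members named in a contrast no alternative turned the direction. They were picked for the largest folds in these same libraries, so a kept direction is no separate support. E3N88_38982 alone lost its call, between flower and shoot apex, in the 6 fits without a library of either, where its log2 fold change was -1.46 to -1.38. The rule limits the fold between flower and shoot apex, so nothing is read from the fits of E3N88_01001 and E3N88_38982.

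Deviations of same-numbered libraries from their organ means correlated over 0.1 in 4 of 30 cases (-0.23 to 0.26). Libraries with different numbers were not compared, so this does not show whether same-numbered libraries came from the same plants. With the replicate number as a block the calls were 75 in leaf and 22 in root, 33 in leaf and 28 in stem, 11 in root and 61 in stem, and 13 in flower and 12 in shoot apex. The lower reads per member in leaf, root and stem limit the contrasts among these organs.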
